A study of Rattus norvegicus with 24 samples.

Results

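The 9 genes followed here, Cs, Idh2, Idh3a, Idh3b, Ogdh, Suclg1, Sucla2, Fh and Mdh2, encode enzymes of the citric acid cycle or their subunits and were chosen by name. Of these 9, 8 are analysed here among 21767 gene symbols, and all 8 were among the 14303 genes that passed the filter on low counts. Ogdh is not analysed here. The RNA came from neonatal rat ventricular myocytes, which are beating heart muscle cells isolated from newborn Sprague-Dawley rats and kept in culture. The study addressed whether a pair of microRNAs, miR-222-3p and miR-455-3p, protects such cells from doxorubicin, an anthracycline cancer drug that intercalates into DNA, poisons topoisomerase II and damages the heart. Cells were transfected with the mimics, at 5 nM each, on the day after plating, and were exposed to doxorubicin or to the control treatment 48 h later for 24 h. The sample labels give doxorubicin at 4 µM and the text of the series gives 4 mM, so its unit is uncertain. There were 8 groups of 3 libraries: doxorubicin with the miR-222 mimic, the miR-455 mimic, both mimics or the control mimic, and the same 4 mimic conditions without doxorubicin. Every group was thus transfected, the controls included. The labels name no animal, isolation or culture behind a replicate, so the p-values weigh only the variation among these libraries, which may be technical.

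The citric acid cycle runs in the mitochondrial matrix and oxidises the acetyl group of acetyl-CoA, made from pyruvate, fatty acids and ketone bodies, to carbon dioxide. It passes the electrons as NADH and reduced ubiquinone to the respiratory chain. The beating heart meets nearly all of its energy demand by this route, and all enzymes of the cycle are made from nuclear genes and imported into mitochondria. Their transcription is known to depend on the coactivators PGC-1alpha and PGC-1beta with the estrogen-related receptors and the nuclear respiratory factors. Citrate synthase (Cs) forms citrate, the isocitrate dehydrogenases (Idh2 and the Idh3 complex) and the 2-oxoglutarate dehydrogenase complex release carbon dioxide, succinyl-CoA ligase (Suclg1 with Sucla2 or Suclg2) makes a nucleoside triphosphate, and fumarase (Fh) and malate dehydrogenase (Mdh2) regenerate oxaloacetate.

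The mature sequences of the microRNAs supplied as mimics are shown because every mimic comparison rests on them, with the seed (bases 2 to 8) in capitals. They are RefSeq entries on build GRCr8, at chrX:6022682-6022702 (plus strand) for miR-222-3p and at chr5:81704881-81704902 (plus strand) for miR-455-3p.
rno-miR-222-3p: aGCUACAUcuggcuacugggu
rno-miR-455-3p: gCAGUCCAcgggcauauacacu
The seeds differ, so the mimics do not belong to a shared seed family.

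Promoter windows from RefSeq (GRCr8), from 250 bases before to 50 bases after each gene's start, were matched for 7 of the 8 genes, all except Idh3a. The windows of Cs and Mdh2 are shown because both genes rose with doxorubicin in every mimic condition and their windows carry different motifs. The part of these motifs in the levels was not tested. Capitals mark exact matches to CCAAT in Cs and to CCGGAAGT in Mdh2, on either strand (so ATTGG marks CCAAT on the other strand). The Cs window lies at chr7:1348139-1348438 on the plus strand, and the Mdh2 window at chr12:26543792-26544091 on the minus strand.
Cs: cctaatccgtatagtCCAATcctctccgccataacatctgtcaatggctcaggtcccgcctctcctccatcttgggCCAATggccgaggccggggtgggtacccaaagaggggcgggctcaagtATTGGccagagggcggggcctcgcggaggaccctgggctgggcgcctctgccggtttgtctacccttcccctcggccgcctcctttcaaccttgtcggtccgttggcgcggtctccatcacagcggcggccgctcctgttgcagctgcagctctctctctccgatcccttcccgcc
Mdh2: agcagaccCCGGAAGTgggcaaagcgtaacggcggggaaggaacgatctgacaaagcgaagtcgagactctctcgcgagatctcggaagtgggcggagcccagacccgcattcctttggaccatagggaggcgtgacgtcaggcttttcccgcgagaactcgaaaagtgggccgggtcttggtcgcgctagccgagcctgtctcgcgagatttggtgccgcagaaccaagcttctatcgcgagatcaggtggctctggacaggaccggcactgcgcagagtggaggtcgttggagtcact
The first bases of the 3 CCAAT matches of Cs lie 235, 174 and 126 bases before its start, and that of the CCGGAAGT match of Mdh2 242 bases before its start. CCAAT was found in 5 of the 7 windows (Cs, Idh2, Idh3b, Suclg1 and Fh) and in 37.7% of all 27457 promoter windows. CCGGAAGT, the core bound by the ETS factor GABP, was found in the Mdh2 window alone of the 7 and in 4.01% of all windows. The estrogen-related receptor site TCAAGGTCA, the NRF1 core GCATGCGC and the E-box CACGTG had no exact match in the 7 windows and were found in 0.412%, 2.66% and 6.65% of all windows. No 2 of these motifs overlap in the windows shown.

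Library totals lay between 17311949 and 25750309 counts, and the 8 genes had between 1655 counts (Suclg1) and 64528 counts (Idh2) in a library. Among all 3 libraries of doxorubicin with the miR-455 mimic, and between libraries 1 and 2 without doxorubicin with the miR-222 mimic, libraries 1 and 3 without doxorubicin with the miR-455 mimic and libraries 1 and 2 without doxorubicin with both mimics, the chi-square per degree of freedom was 5.79 to 9.79, against 51.4 to 575 for the other replicate pairs. All replicate pairs therefore differed by more than counting noise, and these were the closest. Levels are given as CPM, which are counts divided by library totals after trimmed-mean (TMM) scaling and brought to a common size, and no value is compared between genes because transcript lengths are not used. The 8 detected cardiomyocyte markers were at or above 24.05 CPM in every library and summed to 18026 to 63906 CPM with doxorubicin and 22278 to 51645 CPM without. Fibroblast markers summed to 16155 to 52858 CPM with doxorubicin and 14794 to 29768 CPM without, so the cultures held RNA of both cell types. Smooth muscle and pericyte markers summed to 1199 to 4451 CPM over all libraries. Among them, Acta2 stood at 200 to 3040.5 CPM and Tagln at 279 to 1848 CPM, while Rgs5 was at 0 in 7 libraries. Macrophage, leukocyte and endothelial markers were present at low levels. Of 6 macrophage and leukocyte markers, Cd14 (1.71 to 14.2 CPM), Lyz2 (0.762 to 8.12 CPM) and Cd68 (0.176 to 2.99 CPM) were found in every library, and Csf1r, Ptprc and Adgre1 were at 0 in 2, 9 and 20 of the 24. Of 6 endothelial markers, Tek (3.90 to 25.7 CPM) and Kdr (0.257 to 45.8 CPM) were found in every library, Cdh5 was at 0 in 4, and Tie1, Vwf and Egfl7 were at 0 in 1 each. In 4 libraries, doxorubicin with control mimic library 1, doxorubicin with both mimics library 2, no doxorubicin with control mimic library 1 and no doxorubicin with both mimics library 3, the fewest genes reached 10 counts, and mitochondrially encoded genes took 20.3% to 38.2% of their counts, against 5.54% to 20.2% in the other 20.

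With the control mimic, doxorubicin raised the transcripts of all 8 cycle genes, and for each of them the 3 doxorubicin libraries lay above the 3 libraries without it. Of all tested genes, 15.2% were called higher in this comparison, 27.5% were called in either direction, and 33.5% had libraries that did not overlap between the groups. The median log2 fold change of the 8 was 2.13, against 0.02 over all genes tested. In bulk RNA a change in the number of cells of a type and a change in RNA per cell cannot be told apart.

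Cs, the enzyme that brings acetyl-CoA into the cycle, stood at 776, 812 and 1211 CPM with doxorubicin, against 125, 196 and 267 CPM without. Its log2 fold change was 2.25 ± 0.37 (SE), a 4.75-fold rise (edgeR, adjusted p = 0.000147). All 3 doxorubicin libraries were high, and the highest was library 3. Idh2, the NADP-linked isocitrate dehydrogenase of the matrix that supplies NADPH for antioxidant defence, stood at 2897, 2359.8 and 3557 CPM with doxorubicin, against 333, 494 and 659.8 CPM without. Its log2 fold change of 2.57 ± 0.40 was the largest of the 8 (edgeR, adjusted p = 8.7e-05), and every doxorubicin library was far above every library without the drug. The NAD-linked isocitrate dehydrogenase, a rate-controlling step of the cycle, is built from catalytic alpha subunits (Idh3a) and from beta and gamma subunits (Idh3b and Idh3g). Idh3b stood at 704, 392 and 548 CPM with doxorubicin, against 121, 115 and 129 CPM without, a log2 fold change of 2.17 ± 0.21 (edgeR, adjusted p = 3.73e-07). Idh3a, which carries the catalytic site, stood at 527, 322 and 420.3 CPM with doxorubicin, against 242, 232 and 229 CPM without. The Idh3a groups were separate but close, and its log2 fold change of 0.85 ± 0.22 was the smallest of the 8 (edgeR, adjusted p = 0.00774).

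Suclg1, the alpha subunit shared by both succinyl-CoA ligases, stood at 370.3, 415 and 602 CPM with doxorubicin, against 70.5, 102 and 152 CPM without, a log2 fold change of 2.09 ± 0.32 (edgeR, adjusted p = 6.75e-05). Sucla2, the beta subunit of the ligase that makes ATP, stood at 979.5, 335 and 559.7 CPM with doxorubicin, against 204, 120.4 and 120.1 CPM without, a log2 fold change of 2.08 ± 0.34 (edgeR, adjusted p = 0.000134). The doxorubicin libraries of Sucla2 were far apart, with library 1 high and library 2 low, the widest spread of the 8 genes in this group relative to the mean. Fumarase, encoded by Fh, hydrates fumarate to malate. It stood at 943, 532 and 675 CPM with doxorubicin, against 200, 152 and 156 CPM without, a log2 fold change of 2.08 ± 0.23 (edgeR, adjusted p = 2.37e-06). Mdh2, which oxidises malate to oxaloacetate and also serves the malate-aspartate shuttle, stood at 2293, 1938 and 2269 CPM with doxorubicin, against 388, 442 and 479 CPM without. Its doxorubicin libraries were all close to each other, and its log2 fold change of 2.31 ± 0.19 had the smallest adjusted p of the 8 (edgeR, 1.81e-07). Reads shared between Cs, Idh3b, Fh or Mdh2 and the near-identical copies that RefSeq lists for them could not be separated here. Apart from Idh3a, the 7 genes were called in every alternative processing run.

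**Figure D1:**
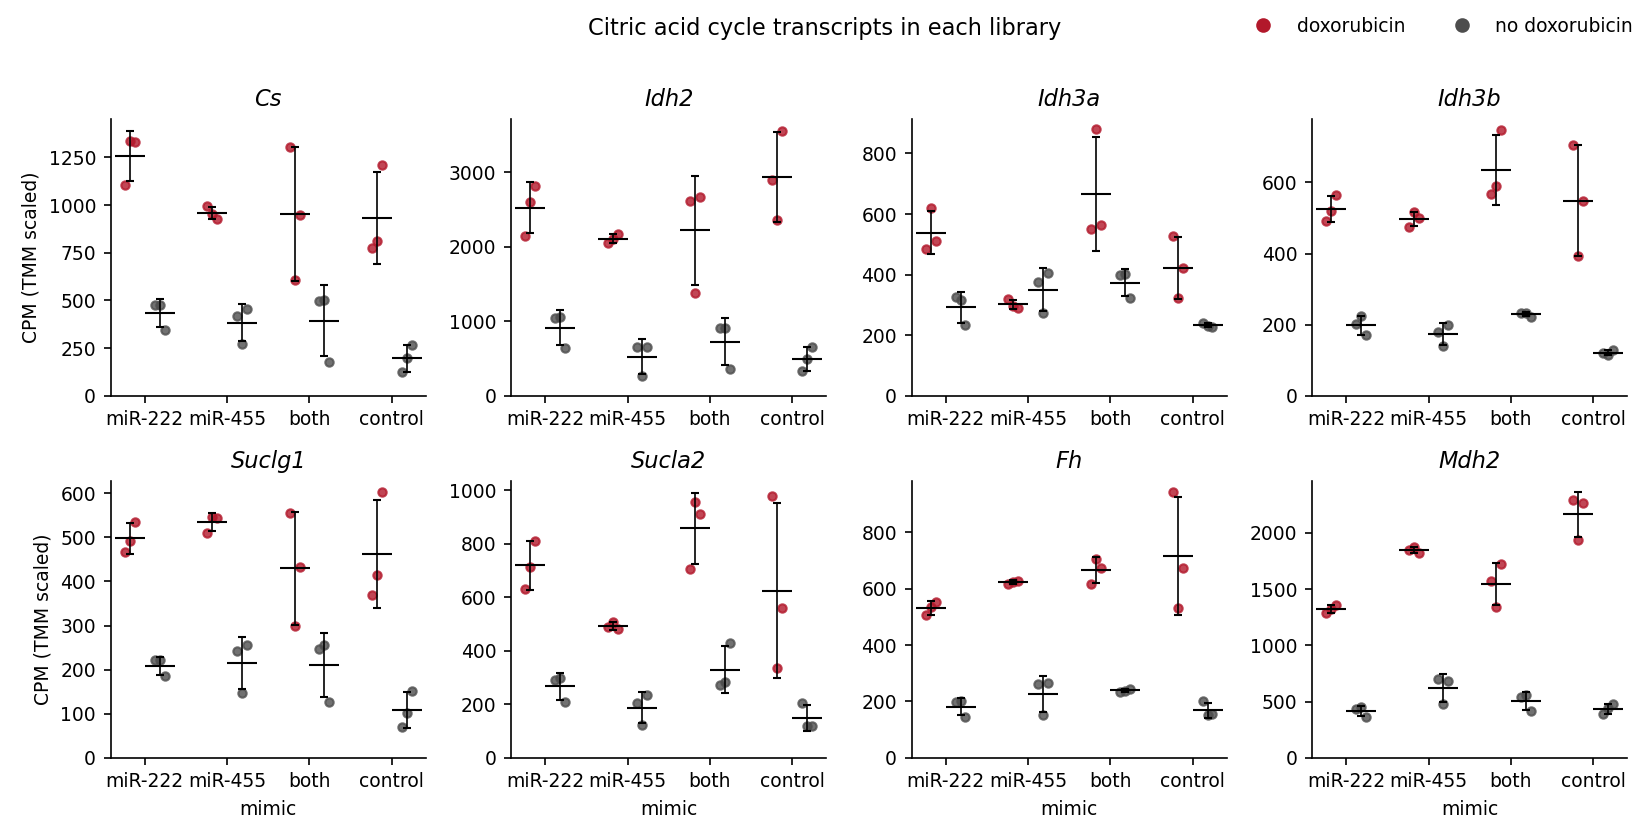
CPM (TMM scaled, vertical axis from 0) of the 8 cycle genes in each of the 24 libraries, by mimic, with doxorubicin (red, left of each pair) and without (grey, right). Points are libraries and black bars are group means ± SD (n = 3). For Mdh2 the 12 doxorubicin libraries sit between 1284 and 2293 CPM and the 12 without between 362 and 699 CPM, while for Idh3a they overlap.

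The size of these rises rests in part on the scaling. The TMM factors were 0.572 to 1.01 in the 12 doxorubicin libraries and 1.04 to 1.37 in the 12 without. With library totals alone, a scaling chosen after the values were seen, the median over all genes moved to -0.65, -0.48, -0.41 and -0.53 on the log2 scale with the control mimic, the miR-222 mimic, the miR-455 mimic and both mimics. In the comparison with the control mimic, 18.7% of all calls were then higher, against 55.2% with TMM. The 8 genes held 0.543% to 0.795% of all counts in doxorubicin libraries and 0.188% to 0.423% without. These raw shares use no TMM factor and amount to scaling by library totals. With library totals, Idh3a fell out of the calls with the control mimic (log2 fold change 0.11, edgeR, adjusted p = 0.664). It was also not called when only the 2 groups compared were fitted (log2 fold change 0.83, edgeR, adjusted p = 0.0841).

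With the mimics present, doxorubicin again raised nearly all of these transcripts. The log2 fold changes were smaller than with the control mimic for 7 of the 8 genes, a difference that was not called for any gene. With the miR-222 mimic all 8 genes rose, with log2 fold changes from 0.88 (Idh3a) to 1.67 (Mdh2) and a median of 1.45, while 7.76% of all tested genes were called higher, 14.6% in either direction, and 49.3% had groups that did not overlap. In the cells with the miR-455 mimic 7 of the 8 rose, from 1.31 (Suclg1) to 2.00 (Idh2) on the log2 scale, against 9.02% of all genes called higher, 18.1% in either direction, and 53.8% with separate groups. With both mimics all 8 rose, from 0.83 (Idh3a) to 1.61 (Idh2) and a median of 1.42, against 7.85% of all genes called higher, 15.1% in either direction, and 24.6% with separate groups. Groups were separate for 8, 7 and 8 of the 8 genes with the miR-222 mimic, the miR-455 mimic and both mimics. The median over all genes was between -0.07 and 0.00 in these 3 comparisons. The exception was Idh3a with the miR-455 mimic, at 319.6, 297 and 291 CPM with doxorubicin, against 375, 272 and 405 CPM without. These groups overlapped, and the log2 fold change of -0.21 ± 0.22 was not called (edgeR, adjusted p = 0.575).

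Mdh2 showed the pattern shared by most of the 8. With the miR-222 mimic it stood at 1284, 1326 and 1356 CPM with doxorubicin, against 431, 450.5 and 362 CPM without, a log2 fold change of 1.67 ± 0.19 (edgeR, adjusted p = 1.51e-05). With the miR-455 mimic it stood at 1848, 1877 and 1824 CPM with doxorubicin, against 699, 476 and 686 CPM without, a log2 fold change of 1.58 ± 0.19 (edgeR, adjusted p = 1.6e-05). With both mimics it stood at 1572, 1345 and 1720.0 CPM with doxorubicin, against 539.6, 560.5 and 416 CPM without, a log2 fold change of 1.61 ± 0.19 (edgeR, adjusted p = 1.91e-05). In each mimic condition the groups were far apart.

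Idh3b and Fh were about as even between libraries. Idh3b with the miR-222 mimic stood at 491, 519 and 564 CPM with doxorubicin, against 202, 223 and 170.2 CPM without, with the miR-455 mimic at 476, 516 and 499 CPM with doxorubicin, against 180.4, 141 and 200.3 CPM without, and with both mimics at 568, 588 and 747 CPM with doxorubicin, against 232, 234 and 222 CPM without. The log2 fold changes of Idh3b were 1.40 ± 0.20, 1.51 ± 0.20 and 1.47 ± 0.20 (edgeR, adjusted p = 0.000111, 3.91e-05 and 7.02e-05), and no doxorubicin library was as low as any library without the drug. Fh stood at 505, 534 and 554 CPM with doxorubicin, against 197, 202 and 146 CPM without in the cells with the miR-222 mimic, at 616, 625 and 629 CPM with doxorubicin, against 262, 154 and 265 CPM without in those with the miR-455 mimic, and at 618, 707 and 674 CPM with doxorubicin, against 234, 238 and 246 CPM without in those with both mimics. The log2 fold changes of Fh were 1.55 ± 0.23, 1.46 ± 0.23 and 1.48 ± 0.23 (edgeR, adjusted p = 0.00013, 0.000161 and 0.000194), again with groups far apart.

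Cs and Idh2 had libraries that stood apart within a group. Cs with the miR-222 mimic stood at 1104, 1336 and 1331 CPM with doxorubicin, against 476, 477 and 347 CPM without, with the miR-455 mimic at 993, 955 and 926 CPM with doxorubicin, against 418, 273 and 456 CPM without, and with both mimics at 1307, 606 and 946 CPM with doxorubicin, against 499, 503 and 179 CPM without. Its log2 fold changes were 1.54 ± 0.36, 1.33 ± 0.36 and 1.27 ± 0.36 (edgeR, adjusted p = 0.00622, 0.0134 and 0.0193). Library 2 with doxorubicin and library 3 without it were the low ones with both mimics, and both are among the 4 libraries with few detected genes. Idh2 stood at 2149, 2602 and 2821 CPM with doxorubicin, against 1049, 1059 and 642 CPM without in the cells with the miR-222 mimic, at 2047, 2112 and 2178 CPM with doxorubicin, against 662, 260.2 and 659 CPM without in those with the miR-455 mimic, and at 2623, 1381 and 2669 CPM with doxorubicin, against 905, 913 and 363 CPM without in those with both mimics. Its log2 fold changes were 1.46 ± 0.38, 2.00 ± 0.39 and 1.61 ± 0.38 (edgeR, adjusted p = 0.0132, 0.00133 and 0.00721), and in each condition without doxorubicin 1 library was far lower than the other 2.

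The subunits of succinyl-CoA ligase rose as well. Suclg1 stood at 466, 492 and 536 CPM with doxorubicin, against 221, 221 and 185 CPM without in the cells with the miR-222 mimic, at 511, 547 and 544 CPM with doxorubicin, against 241, 147 and 256 CPM without in those with the miR-455 mimic, and at 556, 299.9 and 434 CPM with doxorubicin, against 247, 257 and 127 CPM without in those with both mimics. For Suclg1 the log2 fold changes were 1.25 ± 0.31, 1.31 ± 0.31 and 1.03 ± 0.31 (edgeR, adjusted p = 0.009, 0.00565 and 0.0276). With both mimics the lowest doxorubicin library of Suclg1, library 2, was only a little above the highest library without the drug. Sucla2 stood at 629.9, 714 and 812 CPM with doxorubicin, against 291, 300 and 209.6 CPM without in the cells with the miR-222 mimic, at 489.6, 508 and 479.6 CPM with doxorubicin, against 206, 122 and 234 CPM without in those with the miR-455 mimic, and at 707, 957 and 909 CPM with doxorubicin, against 274, 285 and 431 CPM without in those with both mimics. Its log2 fold changes were 1.43 ± 0.33, 1.39 ± 0.33 and 1.38 ± 0.33 (edgeR, adjusted p = 0.00562, 0.00582 and 0.00719), and library 3 without doxorubicin was the high one with both mimics. Idh3a rose with the miR-222 mimic, where it stood at 486, 619.8 and 510.1 CPM with doxorubicin, against 327, 317 and 234 CPM without, and with both mimics, where it stood at 550, 882 and 564 CPM with doxorubicin, against 398, 401 and 323 CPM without. Its log2 fold changes were 0.88 ± 0.22 and 0.83 ± 0.22 (edgeR, adjusted p = 0.0111 and 0.0157).

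Some of these edgeR calls were lost when 1 library was omitted. For the miR-222 mimic, omitting library 2 with doxorubicin or library 3 without it ended the call of Idh3a (log2 fold changes 0.77 and 0.73, edgeR, adjusted p = 0.0542 and 0.0638), and omitting library 3 without doxorubicin ended that of Idh2 (1.25, adjusted p = 0.0687). For the miR-455 mimic, omitting library 2 without doxorubicin ended the call of Cs (1.08, adjusted p = 0.0695). With both mimics, Cs was not called when library 1 with doxorubicin (0.98, adjusted p = 0.0895) or library 3 without it (0.94, adjusted p = 0.0556) was omitted, and Idh3a was not called when library 2 with doxorubicin was omitted (0.58, adjusted p = 0.0889). Suclg1 was not called with both mimics when library 1 or 3 with doxorubicin or library 3 without it was omitted (0.78 to 1.02, adjusted p = 0.0686 to 0.11). In a fit of only the groups with both mimics none of the 8 was called, at log2 fold changes of 0.84 to 1.62 and adjusted p of 0.0722 to 0.236, and 5 of all genes were. With library totals, 4, 5 and 5 of the 8 were called higher with the miR-222 mimic, the miR-455 mimic and both mimics, against 2.98%, 4.91% and 3.42% of all genes. Of all calls, 13.6%, 20.3% and 14.7% were then higher, against 53%, 49.7% and 52% with TMM. Idh3a with the miR-455 mimic was then called lower, at -0.60 (edgeR, adjusted p = 0.0228).

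**Figure D2:**
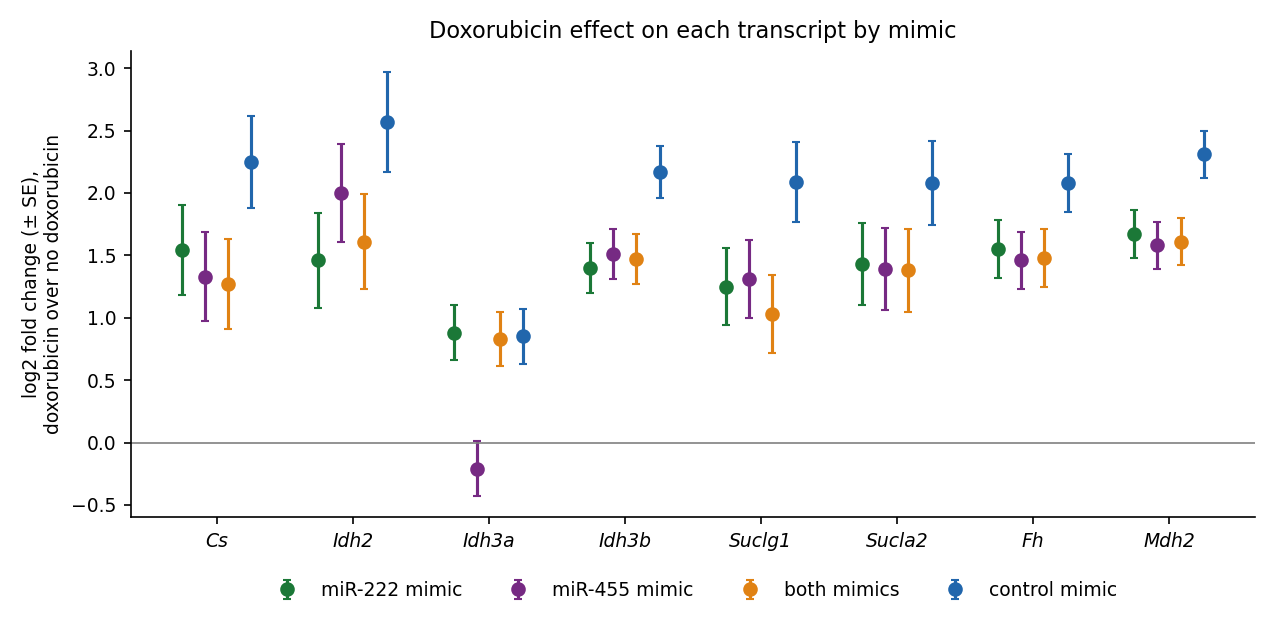
Log2 fold change (vertical axis, ± SE, edgeR) of each of the 8 cycle genes (horizontal axis), doxorubicin over no doxorubicin, in each of the 4 mimic conditions (colours, 3 libraries a group). All values lie above 0 except that of Idh3a with the miR-455 mimic, at -0.21.

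Across the 24 libraries, all 12 doxorubicin libraries lay above all 12 without the drug for 6 of the 8 genes, Cs, Idh2, Idh3b, Suclg1, Fh and Mdh2, as for 3.2% of all tested genes. For Fh the 12 doxorubicin libraries ran from 505 to 943 CPM (median 621), against 145.5 to 265 CPM (median 201) without. For Idh2 they ran from 1381 to 3557 CPM (median 2481), against 260.2 to 1059 CPM (median 659.5) without. Sucla2 missed this separation through library 2 of doxorubicin with the control mimic, at 335 CPM, and library 3 of no doxorubicin with both mimics, at 431 CPM. Idh3a ran from 291 to 882 CPM (median 498) with doxorubicin, against 229 to 405 CPM (median 319.9) without, a wide overlap. Summed over the 8 genes, the level was 6766 to 9842 CPM with doxorubicin and 1684 to 3392 CPM without.

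The order of the 8 group means was led by the 4 doxorubicin groups for every gene but Idh3a, and the group without doxorubicin with the control mimic was the lowest for every gene but Mdh2. Mdh2 ran, from high to low, from doxorubicin with the control mimic through doxorubicin with the miR-455 mimic, both mimics and the miR-222 mimic to the groups without doxorubicin with the miR-455 mimic, both mimics, the control mimic and the miR-222 mimic. For Mdh2, 3 neighbours in this order did not overlap: the control mimic lay above the miR-455 mimic and the miR-455 mimic above both mimics with doxorubicin, and the lowest doxorubicin group lay above the highest group without. Cs was highest in doxorubicin with the miR-222 mimic, which lay above its neighbour, doxorubicin with the miR-455 mimic, without overlap. For Idh3a, from both mimics, the miR-222 mimic and the control mimic with doxorubicin, through both mimics and the miR-455 mimic without, to the miR-455 mimic with doxorubicin and the miR-222 and control mimics without, all neighbours overlapped. For Idh2 and Sucla2 the step from the lowest doxorubicin group to the highest group without it was the only one without overlap. Idh3b and Suclg1 each had 1 more such step, where the group without doxorubicin with the control mimic lay below its neighbour, and Fh had 1 more, where doxorubicin with the miR-222 mimic lay below doxorubicin with the miR-455 mimic.

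Within the NAD-linked isocitrate dehydrogenase complex, Idh3a did not keep step with the other subunits. The log2 ratio of Idh3a to Idh3b within a library was -0.42, -0.28 and -0.38 with doxorubicin and the control mimic, against 1.00, 1.01 and 0.83 without doxorubicin. For the miR-455 mimic the ratio was -0.57, -0.80 and -0.78 with doxorubicin, against 1.06, 0.95 and 1.02 without. In both conditions the groups were far apart, and the doxorubicin libraries with the miR-455 mimic were the 3 lowest of all 24. For the miR-222 mimic the ratio was -0.02, 0.26 and -0.15 with doxorubicin, against 0.70, 0.51 and 0.46 without. With both mimics it was -0.05, 0.58 and -0.41 with doxorubicin, against 0.78, 0.78 and 0.54 without, and library 2, which is among the 4 with few genes, overlapped the untreated libraries. The ratio of Idh3a to Idh3g, the gamma subunit, was -0.79, -1.08 and -0.91 with doxorubicin and the control mimic, against 0.35, 0.28 and 0.27 without. It was -0.97, -1.12 and -1.16 with doxorubicin and the miR-455 mimic, against 0.60, 0.64 and 0.82 without, and 0.02, 0.32 and -0.06 with doxorubicin and the miR-222 mimic, against 0.75, 0.66 and 0.57 without. With both mimics it was 0.02, 0.63 and -0.29 with doxorubicin, against 0.92, 0.97 and 0.67 without. For Idh3g the groups were separate in all 4 conditions, and library 2 of doxorubicin with the control mimic lay among the low miR-455 libraries.

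Set against each of the other 7 genes and Idh3g, the mean change of the log2 ratio of Idh3a under doxorubicin over the 4 mimic conditions was -0.87 (Suclg1) to -1.39 (Idh2), and in 3 or 4 of the 4 conditions all doxorubicin libraries lay below all libraries without it. Such ratios do not depend on the library scaling. They were chosen after the values were seen and are given without a test. A ratio within a library shows unequal change of a pair of transcripts and does not say which of them moved.

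**Figure D3:**
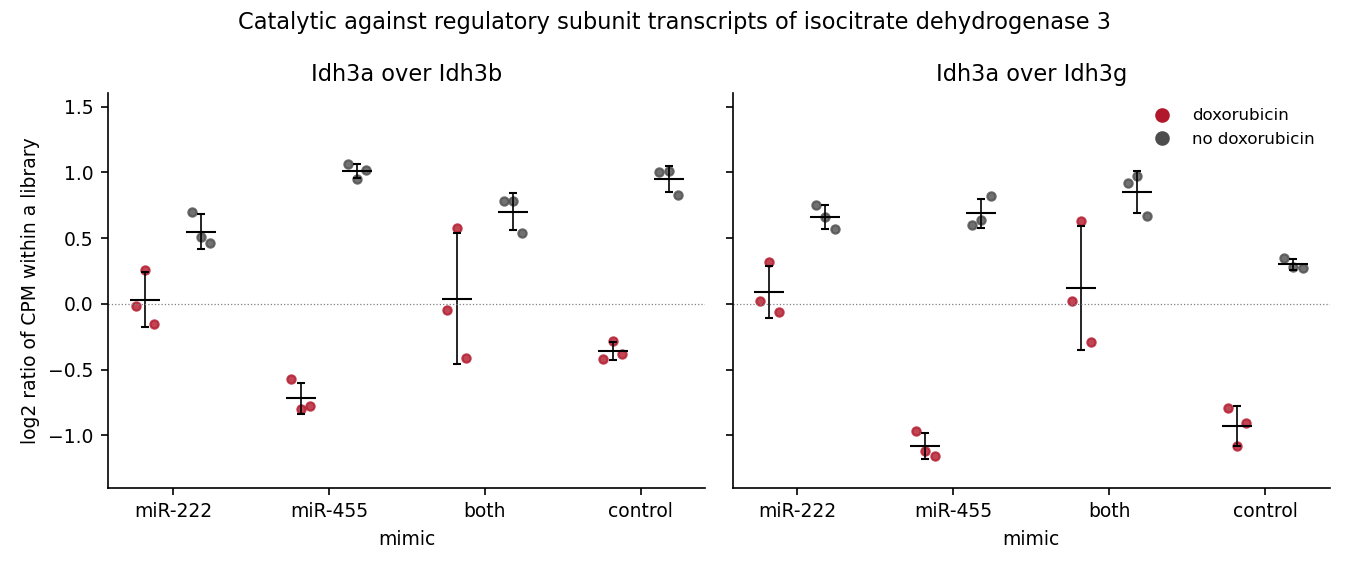
Log2 ratio of CPM within a library (vertical axis) of Idh3a to Idh3b (left) and of Idh3a to Idh3g (right), by mimic, with doxorubicin (red) and without (grey). Points are libraries and black bars are means ± SD (n = 3). For Idh3b the doxorubicin libraries with the miR-455 mimic lie lowest, at -0.57 to -0.80.

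Without doxorubicin, few of the 8 transcripts were called with the mimics alone, while most log2 fold changes lay above 0. Their medians were 0.78, 0.51 and 0.80 with the miR-222 mimic, the miR-455 mimic and both mimics, against 0.06, 0.06 and 0.07 over all genes. In the same order, 7, 8 and 8 of the 8 lay above 0, and 5, 5 and 6 had an unadjusted p below 0.05 (edgeR). The share of all genes at an unadjusted p below 0.05 is not given, here or below. Such counts therefore have no background to be read against. With the miR-222 mimic, Cs and Idh3b rose, 2 of 8, where 4.5% of all tested genes were called higher and 8.97% in either direction. The groups were separate for 4 of the 8, Cs, Idh3b, Suclg1 and Sucla2, and for 37.8% of all genes. Cs stood at 476, 477 and 347 CPM with the miR-222 mimic, against 125, 196 and 267 CPM with the control mimic, and the groups did not overlap (log2 fold change 1.14 ± 0.36, edgeR, adjusted p = 0.049). Idh3b stood at 202, 223 and 170.2 CPM with the miR-222 mimic, against 121, 115 and 129 CPM with the control mimic, again without overlap (log2 fold change 0.71 ± 0.20, edgeR, adjusted p = 0.0318). Both calls were near the threshold. Neither was made without library 1 or 2 of either group (edgeR, adjusted p of 0.131 to 0.245 for Cs and 0.111 to 0.174 for Idh3b). The log2 fold changes were then 0.87 to 1.11 for Cs and 0.58 to 0.66 for Idh3b. Libraries 1 and 2 with the miR-222 mimic were close to each other (chi-square per degree of freedom 5.79). Omitting 1 of them leaves the other, so these omissions cannot show how far the values rest on that pair. Neither was made in a fit of only these groups (edgeR, adjusted p = 0.0771 for Cs and 0.0848 for Idh3b). Fh and Mdh2 had log2 fold changes of 0.10 ± 0.22 and -0.07 ± 0.18 with the miR-222 mimic.

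With both mimics, Idh3b and Sucla2 rose, where 3.67% of all genes were called higher, 3.39% lower and 7.06% in either direction. The groups were separate for 4 of the 8, Idh3a, Idh3b, Sucla2 and Fh, and for 21.2% of all genes. Idh3b stood at 232, 234 and 222 CPM with both mimics, against 121, 115 and 129 CPM with the control mimic (log2 fold change 0.92 ± 0.20, edgeR, adjusted p = 0.00955). The libraries of Idh3b were tight in both groups and did not overlap. Sucla2 stood at 274, 285 and 431 CPM with both mimics, against 204, 120.4 and 120.1 CPM with the control mimic (log2 fold change 1.16 ± 0.33, edgeR, adjusted p = 0.0381). The call of Idh3b was lost without library 1 or 2 of both mimics or library 2 of the control mimic (adjusted p = 0.0509 to 0.0523), and that of Sucla2 without any library of both mimics or without library 2 or 3 of the control mimic (adjusted p = 0.0742 to 0.15). In a fit of only these groups neither was called (adjusted p = 0.177 for Idh3b and 0.227 for Sucla2), nor any other of the 8 or of all genes, while DESeq2 called 5 of the 8 and 1887 of all genes.

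The miR-455 mimic alone gave no edgeR call among the 8, where 4.72% of all genes were called. Of the 8, 5 had an unadjusted p below 0.05, and DESeq2 called 2, Suclg1 (0.98, adjusted p = 0.0227) and Mdh2 (0.50, adjusted p = 0.0324). The groups were separate for Cs, Idh3a and Idh3b, 3 of the 8, and for 29% of all genes. Suclg1 stood at 241, 147 and 256 CPM with the miR-455 mimic, against 70.5, 102 and 152 CPM with the control mimic (log2 fold change 0.99 ± 0.31, edgeR, adjusted p = 0.0641). Library 2 with the miR-455 mimic was the low one, and without it Idh3a, Idh3b, Suclg1 and Mdh2 were called by edgeR (log2 fold changes of 0.72, 0.63, 1.18 and 0.65, adjusted p = 0.0246 to 0.0495). Without library 3 of the control mimic, Suclg1 was called (1.29, adjusted p = 0.0309). These 3 comparisons share their control libraries. With library totals, 63.1% of all calls were higher with the miR-222 mimic and 32% with the miR-455 mimic, against 50.2% and 52.3% with TMM.

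The level of hypoxia-induced genes differed between these libraries along with Cs and Idh2. The mean log2 CPM of the 16 hypoxia-induced genes tested was 7.48, 7.42 and 5.31 with the miR-222 mimic, 7.66, 5.75 and 7.88 with the miR-455 mimic and 7.39, 7.46 and 5.13 with both mimics, against 4.67, 5.00 and 6.85 with the control mimic. Cs stood at 476, 477 and 347, at 418, 273 and 456 and at 499, 503 and 179 CPM in the same mimic libraries, against 125, 196 and 267 CPM in the control mimic libraries. Idh2 stood at 1049, 1059 and 642, at 662, 260.2 and 659 and at 905, 913 and 363 CPM in those mimic libraries, against 333, 494 and 659.8 CPM with the control mimic. In each of the 4 groups the libraries with little hypoxia-induced RNA were those with little Cs and Idh2. Not all of the cycle genes followed this. Sucla2 and Fh were also lowest in library 3 with the miR-222 mimic and library 2 with the miR-455 mimic. They were the highest of their group in library 1 with the control mimic and library 3 with both mimics. Of the 16 genes, 1 (Mxi1) was called with the miR-222 mimic and none by edgeR with the miR-455 mimic or both mimics. Of the low libraries, library 1 with the control mimic and library 3 with both mimics are among the 4 with the fewest detected genes, with 20.3% and 24.9% of counts from mitochondrially encoded genes. Under doxorubicin the relation did not hold in every group. Library 2 of doxorubicin with both mimics had the highest hypoxia mean of its group (6.60) and the lowest Cs (606 CPM) and Idh2 (1381 CPM). The part of hypoxia-induced genes and of RNA quality in the mimic effects was not tested.

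Markers of other cell types also moved in these comparisons. Over all tested genes, 4.47%, 2.25% and 3.39% were called lower with the miR-222 mimic, the miR-455 mimic and both mimics. In the same order 4.5%, 2.47% and 3.67% were called higher. Without doxorubicin, 3, 2 and 3 of the 8 fibroblast markers fell with the miR-222 mimic, the miR-455 mimic and both mimics and none rose, at medians of -0.86, -1.01 and -1.47 on the log2 scale. Their summed level was 16560 to 18582, 25399 to 28475 and 14794 to 20382 CPM with the miR-222 mimic, the miR-455 mimic and both mimics, against 19193 to 29768 CPM with the control mimic. Smooth muscle and pericyte markers fell for 2, 0 and 1 of 6, at 1199 to 2161, 2680 to 2841 and 1369 to 3084 CPM in sum, against 3057 to 3856 CPM with the control mimic. Of the 8 cardiomyocyte markers 1 fell with the miR-222 mimic, 1 rose with the miR-455 mimic and 1 fell with both mimics, and their sums were 22278 to 24186, 39182 to 51645 and 23922 to 28714 CPM, against 23820 to 26264 CPM with the control mimic. Of the 6 endothelial markers 1 rose with the miR-222 mimic and no other was called, while their sums, 37.2 to 40.2, 33.7 to 44.8 and 21.3 to 29.6 CPM, all lay below the 47.3 to 67.8 CPM of the control mimic. Of the 4 macrophage markers tested none was called, and the sums over the list were 7.19 to 9.37, 7.53 to 11.6 and 9.31 to 10.3 CPM, against 11.2 to 12.7 CPM with the control mimic. The part of these cell types in the levels of the cycle genes was not tested.

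Under doxorubicin, the mimics changed 1 of the 8 transcripts in 1 of the 3 comparisons. Mdh2 fell with the miR-222 mimic, to 1284, 1326 and 1356 CPM, against 2293, 1938 and 2269 CPM with the control mimic, and the groups were far apart (log2 fold change -0.71 ± 0.19, edgeR, adjusted p = 0.0326). Of all tested genes, 2.36% were called lower here and 3.95% in either direction, and 26.3% had groups that did not overlap, as Mdh2 alone of the 8. In the same comparison 2 of the 8 cardiomyocyte markers, 2 of the 8 fibroblast markers and 1 of the 6 endothelial markers fell and no marker rose. Summed, cardiomyocyte markers stood at 18026 to 32939 CPM with the miR-222 mimic, against 28570 to 35446 CPM with the control mimic, fibroblast markers at 24923 to 27701 CPM, against 23168 to 52858 CPM, and endothelial markers at 24.2 to 25.6 CPM, against 36.8 to 43.8 CPM. Their part in the fall of Mdh2 was not tested. The call was lost without any 1 library of the miR-222 mimic and without library 1 or 3 of the control mimic (adjusted p = 0.0867 to 0.124). With library totals the log2 fold change was -0.35 (adjusted p = 0.36), while the median of all genes moved to 0.34 and 79.3% of all calls were higher, against 40.2% with TMM. Mdh2 with the miR-455 mimic stood at 1848, 1877 and 1824 CPM and with both mimics at 1572, 1345 and 1720.0 CPM, each below the control mimic libraries without overlap, and neither difference was called (log2 fold changes -0.23 ± 0.18 and -0.49 ± 0.18, edgeR, adjusted p = 0.745 and 0.133).

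Idh3a lay at different levels with the different mimics under doxorubicin, with no difference called against the control mimic. It stood at 486, 619.8 and 510.1 CPM with the miR-222 mimic, at 319.6, 297 and 291 CPM with the miR-455 mimic and at 550, 882 and 564 CPM with both mimics, against 527, 322 and 420.3 CPM with the control mimic. The miR-455 libraries lay just below all control libraries and the libraries with both mimics above them, and the log2 fold changes were 0.35 ± 0.22, -0.48 ± 0.22 and 0.65 ± 0.22 for the miR-222 mimic, the miR-455 mimic and both mimics (edgeR, adjusted p = 0.488, 0.401 and 0.0934). For the miR-455 mimic none of the 8 was called by edgeR, where 2.5% of all genes were, 1 had an unadjusted p below 0.05 and DESeq2 called none, and the groups were separate for 3 of the 8 and 26.6% of all genes. With both mimics none was called by edgeR, where 5.55% of all genes were, 2.78% higher and 2.78% lower. There, 2 had an unadjusted p below 0.05, DESeq2 called 2, Idh3a at 0.67 and Mdh2 at -0.49, and the groups were separate for 2 of the 8 and 17.8% of all genes. Without library 1 of doxorubicin with the control mimic, edgeR called Idh3a with both mimics (0.84, adjusted p = 0.0412). With library totals, Idh3a was called higher with the miR-222 mimic (0.74, adjusted p = 0.0239) and with both mimics (0.91, adjusted p = 0.0042), and 49.6% of all calls were higher with the miR-455 mimic and 80.9% with both, against 26.3% and 50% with TMM. Cs, Idh2, Idh3b, Suclg1, Sucla2 and Fh had log2 fold changes of -0.48 to 0.46 in these 3 comparisons, none called.

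Whether the mimics changed the doxorubicin effect itself was asked with the difference between doxorubicin effects. For none of the 8 was this difference called with the miR-222 mimic, the miR-455 mimic or both mimics, where 0.0489%, 0% and 0.0559% of all genes were called, and 0.00699%, 0% and 0.00699% higher. At an unadjusted p below 0.05 there were 2, 3 and 3 genes, again without the share of all genes, and DESeq2 called none of the 8. The medians over the 8 were -0.68, -0.71 and -0.70 on the log2 scale, against -0.07, -0.07 and -0.10 over all genes. Idh3a with the miR-455 mimic had the difference with the smallest adjusted p in that comparison, at -1.07 ± 0.32 (edgeR, adjusted p = 0.293). All these differences share the libraries with the control mimic, in which the doxorubicin effects were the largest for 7 of the 8 genes. The smaller doxorubicin effects with the mimics are therefore not shown to differ from that with the control mimic. With library totals, 7 of 12 calls over all genes were higher for the miR-222 mimic and 7 of 9 for both mimics, against 1 of 7 and 1 of 8 with TMM. The effect of both mimics beyond the sum of the single mimics was not called for any of the 8 either, with 2 genes at an unadjusted p below 0.05 without doxorubicin and 1 with it, none by DESeq2, and 0.014% and 0.0419% of all genes called. Its medians over the 8 were -0.27 without doxorubicin and 0.43 with it. With doxorubicin, 1 of 4 calls over all genes was higher with library totals, against 5 of 6 with TMM.

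The 4 libraries with the fewest detected genes carried a particular order of these transcripts. In each of the 4, Cs and Suclg1 were the lowest of their group, and Sucla2 and Fh the highest. The log2 ratio of Sucla2 to Suclg1, the subunits that pair in the ATP-forming ligase, was 1.40 (doxorubicin with control mimic), 1.67 (doxorubicin with both mimics), 1.53 (no doxorubicin with control mimic) and 1.77 (no doxorubicin with both mimics) in these 4, against -0.34 to 1.07 in the other 20. The ratio was thus higher in them than in every other library, with doxorubicin and without it. The ranks were read after the libraries had been singled out by gene number and carry no test. The part of RNA quality in the levels was not tested. Without these 4 libraries all 8 genes were called higher with the control mimic and with the miR-222 mimic, 7 with the miR-455 mimic and 7 with both mimics, where Idh3a was lost (log2 fold change 0.47, edgeR, adjusted p = 0.094). Many more of all genes were also called without these 4 libraries in the mimic conditions, with the counts in either direction listed at the end. Without doxorubicin, 4, 1 and 5 of the 8 were then called higher with the miR-222 mimic, the miR-455 mimic and both mimics, where 1377, 1011 and 1813 of all genes were called higher.

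**Figure D4:**
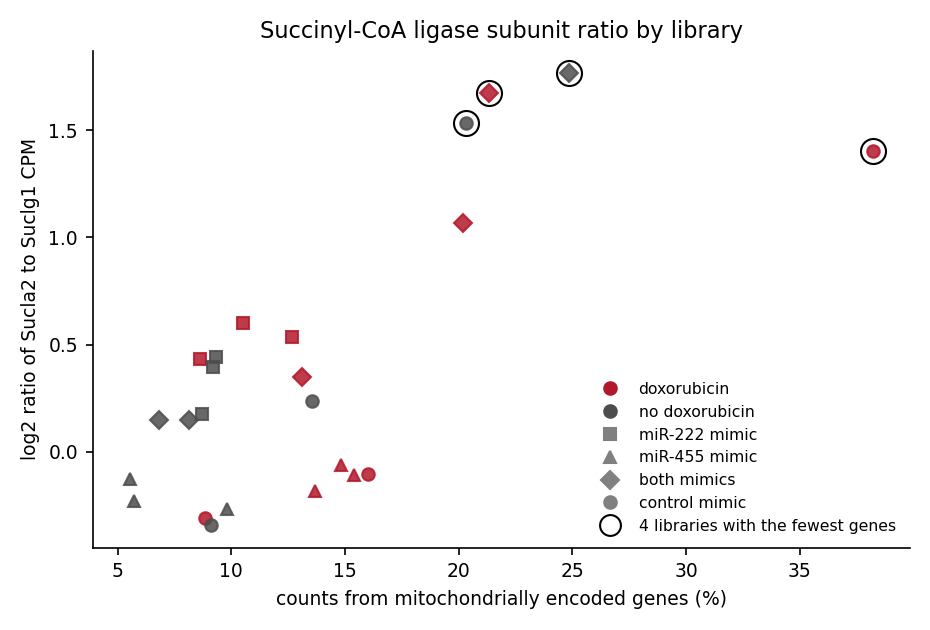
Log2 ratio of Sucla2 to Suclg1 CPM (vertical axis) against the percentage of counts from mitochondrially encoded genes (horizontal axis) in each of the 24 libraries, coloured by doxorubicin and shaped by mimic. Open circles mark the 4 libraries in which the fewest genes reached 10 counts. These 4 lie at 1.40 to 1.77, above all others.

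Most other genes of the cycle rose as well. Of 9 further cycle genes, 9 rose with doxorubicin and the control mimic, 7 with the miR-222 mimic, 8 with the miR-455 mimic and 8 with both mimics, with medians of 1.97, 1.36, 1.28 and 1.22 on the log2 scale and none called lower. Of all tested genes, 15.2%, 7.76%, 9.02% and 7.85% were called higher in the same comparisons. With the control mimic Idh3g stood at 909, 681 and 791 CPM with doxorubicin, against 190.3, 190.2 and 189.7 CPM without, a log2 fold change of 2.06 ± 0.17 (edgeR, adjusted p = 2.01e-07). Sdha and Sdhc of succinate dehydrogenase, Suclg2 of the GTP-forming ligase and Dld, the dihydrolipoamide dehydrogenase shared by the 2-oxoacid dehydrogenase complexes, had log2 fold changes of 2.21 ± 0.18, 1.95 ± 0.23, 1.96 ± 0.17 and 1.97 ± 0.23 with the control mimic. Dlst, the core of the 2-oxoglutarate dehydrogenase complex, rose with the control mimic (1.46 ± 0.23), the miR-455 mimic (0.83 ± 0.22) and both mimics (0.66 ± 0.22), and with the miR-222 mimic its log2 fold change was 0.56 ± 0.22 (edgeR, adjusted p = 0.101). With library totals 9, 7, 7 and 6 of the 9 were called higher with the control mimic, the miR-222 mimic, the miR-455 mimic and both mimics, and without the 4 libraries with few genes 9, 8, 9 and 8. Library totals gave 7.54%, 2.98%, 4.91% and 3.42% of all genes called higher. In the mimic conditions many more of all genes were called as well without the 4 libraries, with the counts listed at the end.

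Sdhd, a membrane anchor of succinate dehydrogenase, rose with the control mimic, where it stood at 591, 428 and 696 CPM with doxorubicin, against 138, 149.9 and 188 CPM without (log2 fold change 1.85 ± 0.26, edgeR, adjusted p = 2.84e-05). With the miR-222 mimic it stood at 181, 209 and 234 CPM with doxorubicin, against 190.2, 183 and 134 CPM without, and with both mimics at 244, 181 and 207 CPM with doxorubicin, against 198, 230.5 and 127 CPM without. The doxorubicin and untreated libraries overlapped in both of those conditions, and the log2 fold changes of 0.30 ± 0.25 and 0.19 ± 0.25 were not called (edgeR, adjusted p = 0.495 and 0.674). Under doxorubicin Sdhd fell with the miR-222 mimic (log2 fold change -1.46 ± 0.25, edgeR, adjusted p = 0.00171) and with both mimics (-1.44 ± 0.25, adjusted p = 0.00147) against the control mimic. The difference between its doxorubicin effects was -1.55 ± 0.35 with the miR-222 mimic and -1.66 ± 0.35 with both mimics, neither called (edgeR, adjusted p = 0.102 and 0.0754). Idh3g fell with the miR-222 mimic under doxorubicin (-0.66 ± 0.17, adjusted p = 0.0309), and Sdha with the miR-455 mimic (-0.80 ± 0.17, adjusted p = 0.0121). Without doxorubicin, Dld rose with both mimics (0.91 ± 0.22, adjusted p = 0.0173), and no other of the 9 was called with any mimic.

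Many genes that feed the cycle rose too. Among 22 tested genes of pyruvate entry and anaplerosis, doxorubicin raised 15 and lowered 1 (Pdp1, a phosphatase that activates pyruvate dehydrogenase, at -1.38 ± 0.39) with the control mimic, raised 9 and lowered 2 with the miR-222 mimic, and raised 9 and lowered 3 with the miR-455 mimic and with both mimics. Of all genes, 15.2%, 7.76%, 9.02% and 7.85% were called higher and 12.3%, 6.87%, 9.11% and 7.24% lower in these 4 comparisons. The medians of the list were 1.48, 0.92, 0.78 and 0.94 on the log2 scale with the control mimic, the miR-222 mimic, the miR-455 mimic and both mimics. The subunits of pyruvate dehydrogenase, which makes acetyl-CoA from pyruvate, were among those that rose, with log2 fold changes of 2.20 ± 0.37 (Pdha1), 2.05 ± 0.15 (Pdhb) and 1.95 ± 0.18 (Dlat) with the control mimic. Oxct1, which activates ketone bodies, had 2.74 ± 0.35, Me3, a mitochondrial malic enzyme, 2.54 ± 0.37, and Glud1, glutamate dehydrogenase, 1.70 ± 0.16. Of the kinase genes that inactivate pyruvate dehydrogenase, Pdk1 (3.26 ± 0.84) rose with the control mimic. It stood at 772, 44.6 and 384 CPM with doxorubicin, against 40.6, 27.45 and 56.9 CPM without. Library 2 with doxorubicin thus lay within the range without it, and the highest, library 1, is among the 4 libraries with few genes. Pdk4, a kinase gene known to be induced by fasting and fatty acids, fell with the miR-222 mimic, where it stood at 7.13, 21.9 and 12.9 CPM with doxorubicin, against 111, 122 and 26 CPM without (log2 fold change -2.63 ± 0.75, edgeR, adjusted p = 0.0224). It also fell with the miR-455 mimic (-4.28 ± 0.82) and with both mimics (-2.45 ± 0.75), while with the control mimic it stood at 33.9, 8.97 and 23.8 CPM with doxorubicin, against 15.7, 13.1 and 8.44 CPM without (log2 fold change 0.84 ± 0.72, adjusted p = 0.42). With library totals the list had 10 higher and 2 lower with the control mimic, 6 and 3 with the miR-222 mimic, 6 and 3 with the miR-455 mimic and 7 and 4 with both mimics, and without the 4 libraries with few genes 12 and 2, 12 and 2, 10 and 3, and 11 and 3. Without those 4, many more of all genes were also called in the mimic conditions, with the counts listed at the end.

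Some of these feeder genes were called with the mimics as well. Without doxorubicin 5, 3 and 7 of the 22 rose with the miR-222 mimic, the miR-455 mimic and both mimics and none fell. Of all tested genes, 4.5%, 2.47% and 3.67% were called higher in these comparisons. Pc, pyruvate carboxylase, which refills oxaloacetate, stood at 73.5, 73.6 and 24.3 CPM with the miR-222 mimic, at 84.0, 20.6 and 86.4 CPM with the miR-455 mimic and at 102, 106 and 12.04 CPM with both mimics, against 5.79, 10.1 and 11.7 CPM with the control mimic. It rose in all 3 comparisons (log2 fold changes 2.63 ± 0.67, 2.79 ± 0.67 and 2.99 ± 0.68, edgeR, adjusted p = 0.0192, 0.0272 and 0.0128), and its low mimic libraries were those with little hypoxia-induced RNA. Me3 rose in the same 3 comparisons (1.66, 1.42 and 1.42), Pdhb, Oxct1 and Pdk4 with the miR-222 mimic (0.59, 1.29 and 2.80) and with both mimics (0.71, 1.41 and 2.51), and Pdhx, a structural component of pyruvate dehydrogenase, with the miR-455 mimic (1.08) and both mimics (1.19). Under doxorubicin the subunits of the mitochondrial pyruvate carrier fell with some of the mimics. Mpc2 stood at 12.9, 16.0 and 12.4 CPM with the miR-455 mimic and 11.97, 5.97 and 5.45 CPM with both mimics, against 43.4, 45.2 and 77.3 CPM with the control mimic (log2 fold changes -2.01 ± 0.50 and -2.82 ± 0.52, edgeR, adjusted p = 0.0348 and 0.00217). Mpc1, its partner, fell with the miR-222 mimic (-1.29 ± 0.35, adjusted p = 0.0423). Pdha1 fell with the miR-455 mimic (-1.36 ± 0.36), Pdk2 rose with the miR-222 mimic (1.46 ± 0.38) and both mimics (2.16 ± 0.39), and Pdhx rose with both mimics (0.99 ± 0.27).

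**Figure D5:**
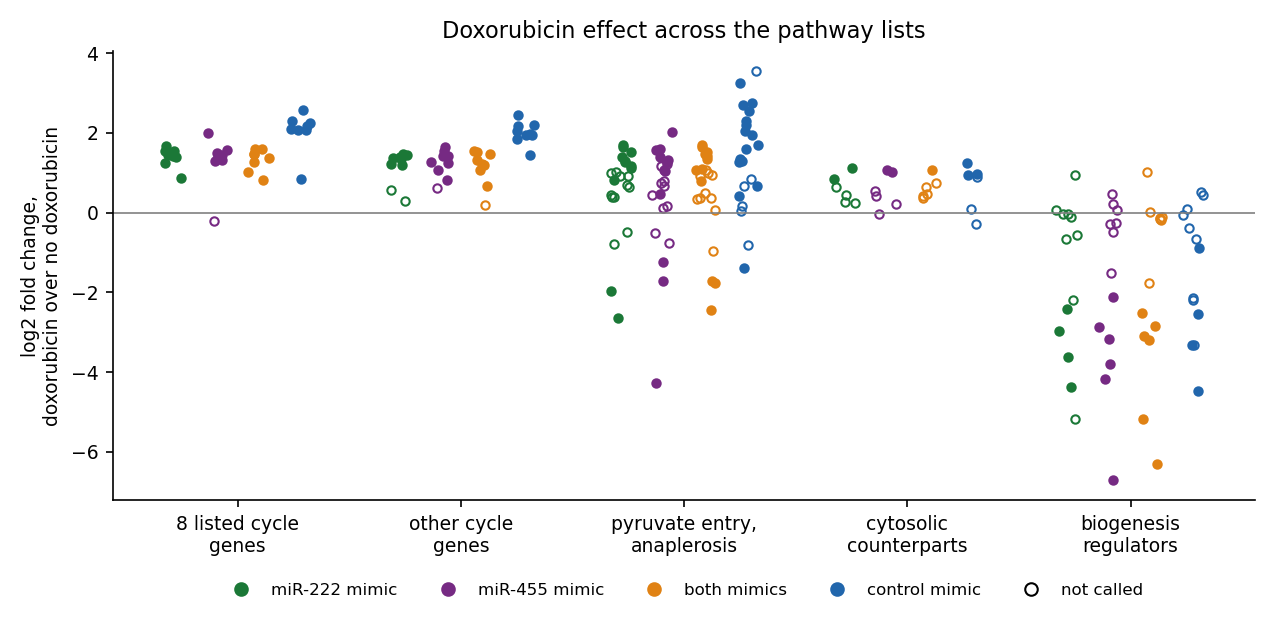
Log2 fold change (vertical axis), doxorubicin over no doxorubicin, of each tested gene in the 8 listed cycle genes, the 9 other cycle genes, the 22 genes of pyruvate entry and anaplerosis, the 6 cytosolic counterparts and the 13 regulators of mitochondrial biogenesis, in each of the 4 mimic conditions (colours). Filled points passed an adjusted p of 0.05 and open points did not. Cycle genes lie above 0 apart from Idh3a with the miR-455 mimic, and none of the regulators called is above 0.

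Of 6 cytosolic counterparts of cycle enzymes, 3, 2, 2 and 1 rose with doxorubicin and the control mimic, the miR-222 mimic, the miR-455 mimic and both mimics. Of all genes, 15.2%, 7.76%, 9.02% and 7.85% were called higher there. With the control mimic the counterparts that rose were Me1, the cytosolic malic enzyme (0.97 ± 0.19), Idh1, the cytosolic NADP-linked isocitrate dehydrogenase (1.25 ± 0.30), and Mdh1, the cytosolic malate dehydrogenase (0.94 ± 0.28). With library totals none was called higher with the control mimic and 1 was called lower, and 1 was called higher in each mimic condition, so these counts depend on the scaling. Without doxorubicin Got1, the cytosolic aspartate aminotransferase, rose with the miR-222 mimic (1.59 ± 0.47), the miR-455 mimic (1.81 ± 0.47) and both mimics (1.81 ± 0.47), Mdh1 with the miR-455 mimic (1.04 ± 0.28) and Me1 with both mimics (0.77 ± 0.19). Under doxorubicin Me1 rose with the miR-222 mimic (0.74 ± 0.19) and both mimics (0.86 ± 0.19).

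Several regulators known to drive cycle genes fell. Of 13 regulators of mitochondrial biogenesis, none was called higher with doxorubicin in any mimic condition, and 4, 4, 6 and 6 fell with the control mimic, the miR-222 mimic, the miR-455 mimic and both mimics, where 12.3%, 6.87%, 9.11% and 7.24% of all genes were called lower. With the control mimic Ppargc1a, which encodes PGC-1alpha, stood at 2.73, 2.11 and 3.36 CPM with doxorubicin, against 37.4, 23.0 and 20.9 CPM without, a log2 fold change of -3.31 ± 0.47 (edgeR, adjusted p = 3.41e-05). The drop in Ppargc1a was seen in each mimic condition, with log2 fold changes of -2.41 ± 0.45, -2.11 ± 0.44 and -2.85 ± 0.45 for the miR-222 mimic, the miR-455 mimic and both mimics. Ppargc1b, which encodes PGC-1beta, stood at 4.84, 6.65 and 5.35 CPM with doxorubicin, against 11.4, 17.3 and 69.2 CPM without in the cells with the control mimic, where library 3 without doxorubicin was far above the others (log2 fold change -2.53 ± 0.62, edgeR, adjusted p = 0.0048). Esrrg, an estrogen-related receptor, stood at 2.02, 4.28 and 5.35 CPM with doxorubicin, against 136, 76.3 and 47.4 CPM without (-4.46 ± 0.77, adjusted p = 0.000251), and Nrf1, nuclear respiratory factor 1, fell with the control mimic (-0.88 ± 0.24, adjusted p = 0.0109). Esrra, the main estrogen-related receptor of heart muscle, varied widely between libraries of a group, at 1.41, 44.3 and 45.2 CPM with doxorubicin, against 3.49, 13.9 and 67.7 CPM without in the cells with the control mimic, and was not called (log2 fold change 0.10 ± 1.03, adjusted p = 0.958). With library totals 8, 7, 8 and 7 of the 13 were called lower and none higher. Of all 14303 genes tested, 4697, 2717, 2759 and 2832 were also called lower with library totals. Without the 4 libraries with few genes 8, 7, 8 and 7 of the 13 were likewise called lower, and none was called higher. Calls over all genes also rose there in the mimic conditions, with the counts in either direction listed at the end.

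No regulator of the 13 was called with any mimic against the control mimic, with or without doxorubicin. Of the 13 mitochondrially encoded protein genes, 2, 0, 2 and 1 rose with doxorubicin and the control mimic, the miR-222 mimic, the miR-455 mimic and both mimics and none fell, and without the 4 libraries with few genes the counts were 1, 1, 12 and 6. With library totals they were 0, 0, 1 and 1. Over all tested genes, 15.2%, 7.76%, 9.02% and 7.85% were called higher with doxorubicin in the same order, and 12.3%, 6.87%, 9.11% and 7.24% lower. These shares are the background for the lists that follow as well. With library totals 7.54%, 2.98%, 4.91% and 3.42% were called higher. Without the 4 libraries many more of all genes were called in the mimic conditions, with the counts listed at the end. Of the 16 hypoxia-induced genes, doxorubicin raised 3 and lowered 2 with the control mimic, and raised none in the other 3 conditions, where 1, 3 and 1 fell with the miR-222 mimic, the miR-455 mimic and both mimics. Of the 8 cardiomyocyte markers, 2 rose and 1 fell with the control mimic, the miR-222 mimic and both mimics, and 2 rose and 3 fell with the miR-455 mimic. Fibroblast markers had 1 called higher and 1 lower of 8 with the control mimic and none in the other 3 conditions. Of the 6 smooth muscle and pericyte markers tested, 1, 2, 0 and 2 rose and 1, 0, 1 and 0 fell with the control mimic, the miR-222 mimic, the miR-455 mimic and both mimics, and the 7 in the table summed to 1239 to 4451 CPM with doxorubicin and 1199 to 3856 CPM without. Of the 6 endothelial markers 1 fell in each condition, summing to 13.2 to 43.8 CPM with doxorubicin and 21.3 to 67.8 CPM without, and of the 4 macrophage and leukocyte markers tested 1 rose in each, summing to 12.3 to 24.3 CPM with doxorubicin and 7.19 to 12.7 CPM without.

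Over the 8 group means, the transcripts most like the average of the 8 cycle genes were sought among 10052 genes with at least 5 CPM on average. Among the 8 closest that are no members were Mrpl37 and Mrpl16 (mitochondrial ribosomal proteins), Sdhb (the iron-sulfur subunit of succinate dehydrogenase), Iars2 (mitochondrial isoleucyl-tRNA synthetase), Ppa2 (mitochondrial pyrophosphatase), Rpl19 (a cytosolic ribosomal protein) and Nme2 (a nucleoside diphosphate kinase), with Pearson's r of 0.992 to 0.994 over 8 group means. Their log2 fold changes with doxorubicin and the control mimic were 1.41 (Rpl19) to 2.23 (Mrpl16). Among the 8 cycle genes themselves r with that average was 0.940 to 0.996 for 7, with Idh3b highest, and 0.752 for Idh3a, below 1365 other genes. Each of the 8 is part of that average, which raises its own r against that of other genes. These values describe 8 group means from libraries of shared scaling, in which the difference with and without doxorubicin dominates, and they carry no test.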

How the data were processed

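Polyadenylated RNA of 24 libraries was sequenced, 3 for each of 8 groups of doxorubicin by mimic. The table deposited by the authors holds expected counts per gene symbol. The submitters' processing notes name Salmon, DESeq2 and build Rnor_6.0 without saying which step each served. Of its values 7.35% are not whole, and all were rounded. Genes were kept by edgeR's filterByExpr, scaled by TMM, and tested with edgeR 4.0.16 (R 4.3.3) in a quasi-likelihood fit of all 8 groups. Benjamini-Hochberg adjustment ran over all 14303 tested genes per comparison, and a gene was called at an adjusted p below 0.05. SE is that of the log2 fold change. Comparisons were doxorubicin against none per mimic, each mimic against the control mimic with and without doxorubicin, the differences between these, and both mimics beyond the sum of the single mimics. Levels (CPM) are counts divided by TMM-scaled library totals.

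All analysed cycle genes are named. From each other list the text names genes called in a comparison, at most the 6 with the smallest p, and by closeness of group means the 8 genes most alike. Some genes this rule selects are not reported here. Dlst, Esrra, Pdk1, Pdp1, Mxi1 and Pdk4 under doxorubicin fall outside this rule and were chosen after their values were seen, as were the ratios. The members and lists were chosen with earlier results of these data known. Alternatives were the DESeq2 1.42.0 test and size factors, library totals, other filters, fits of only the groups compared, a replicate block, omission of mitochondrially encoded genes, of the 4 libraries with the fewest genes and of each library in turn. Total counts of 17311949 to 25750309 per library limit precision little for these genes, since each had at least 1655 counts in every library. The testing script was checked on simulated data.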

Additional observations from a re-analysis of the deposited data

How the results depend on the processing

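The 8 cycle genes were called higher with doxorubicin and the control mimic under each alternative except Idh3a, which was lost in 2. With library totals 4 of the 8 were called with the miR-222 mimic, 5 with both mimics, and 1 with both mimics against the control mimic under doxorubicin. In fits of only the groups compared, 0 were called for doxorubicin with both mimics, 0 for the miR-222 mimic and 0 for both mimics without doxorubicin, and 0 for the miR-222 mimic with it. Without a filter, 1 was called for the miR-222 mimic without doxorubicin and 0 with it, and the replicate block gave 1 and 0. A filter at 1 CPM in 3 libraries, or omission of mitochondrially encoded genes, gave 1 for the miR-222 mimic without doxorubicin. Omitting the 4 libraries low in detected genes, 4, 1 and 5 were called for the miR-222 mimic, the miR-455 mimic and both mimics without doxorubicin. DESeq2 gave 2 and 5 for the miR-455 mimic and both mimics without doxorubicin and 2 for both mimics with it. Omitting 1 library at a time gave 8 to 8 calls for doxorubicin with the control mimic, 6 to 8 with the miR-222 mimic, 6 to 7 with the miR-455 mimic and 6 to 8 with both. For the miR-222 mimic, the miR-455 mimic and both mimics it gave 0 to 3, 0 to 4 and 0 to 4 without doxorubicin and 0 to 1, 0 to 0 and 0 to 1 with it, and 0 for every difference between effects. The causes were not tested. Of 2040 alternative values of single genes, 69 changed sign, none of them called in either.

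Over all genes, the counts called in doxorubicin against none were 3936, 2093, 2593 and 2158 with the control mimic, the miR-222 mimic, the miR-455 mimic and both mimics. Fits of only the groups compared gave 1437, 4785, 5419 and 5. When the 4 libraries low in detected genes were omitted, the counts were 4906, 5545 and 4757 for the 3 mimic conditions, and with library totals 3143 with the miR-222 mimic and 3321 with both. For the miR-222 mimic, the miR-455 mimic and both mimics against the control mimic, 1283, 675 and 1010 genes were called without doxorubicin and 565, 358 and 794 with it. DESeq2 gave 2376, 1928 and 1887 without doxorubicin and 1048, 646 and 1532 with it, and fits of only the groups compared 485, 2 and 0 without and 76, 144 and 2 with it. When those 4 libraries were omitted these counts were 2832, 1994 and 3714, and 1211, 727 and 1873. Library totals gave 1232 for both mimics with doxorubicin, and the replicate block 377 for the miR-455 mimic without it. Where omitting single libraries moved these counts by over 1.5 times, they lay at 1187 to 1289, 1542 to 1626 and 1330 to 1377 for doxorubicin with the miR-222 mimic, the miR-455 mimic and both mimics. For these mimics against the control mimic they lay at 300 to 675, 16 to 1987 and 267 to 2718 without doxorubicin and at 263 to 363, 145 to 152 and 463 to 509 with it. The differences between effects had 7, 0 and 8 calls, with DESeq2 205, 141 and 380 without the 4 libraries 148, 63 and 1589, and without single libraries 0 to 13, 1 to 56 and 0 to 894 (894 without library 3 of no doxorubicin with both mimics), and effects beyond the sum had 2 and 6, with DESeq2 245 and 179 without the 4 libraries 4 and 35, and without single libraries 0 to 7 and 0 to 24.

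Replicate numbers did not pair the libraries in general: of 84 pairs of same-numbered libraries, 16 had a correlation above 0.1 (range -0.581 to 0.453), and 6 of 24 libraries correlated best with their own number. In 1 pair of groups, the miR-222 mimic and both mimics without doxorubicin, all 3 numbers were above 0.1 (0.321, 0.319 and 0.427). These groups were not compared directly and meet in the effect beyond the sum, where the replicate block called none of the 8.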
